A study of Mus musculus with 2 samples.

Results

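Dendritic cells with Ccr7 RNA were picked out of 1 niche and 1 distal single-cell RNA library of immune cells sorted from mouse lungs. Both libraries came from female Balb/c mice given labelling 4T1 cells, a line of mouse mammary carcinoma, by vein, and the metastatic lungs were taken 7 days later; no untreated lung was analysed here. The niche and distal labels are those of the submitters, and neither the sort gates nor the number of animals behind a library is given in the sources used here. A barcode counted as a Ccr7 dendritic cell when it held at least 3 UMIs (molecules told apart by their tags) of Ccr7 and a UMI in at least 2 of Ccl22, Fscn1, Cacnb3 and Ccl17, with at most 1 of Cd3d, Cd3e, Cd3g and Trac detected. This gave 48 of 3081 kept cells in the niche library and 41 of 3540 in the distal library, 89 of 6621 in all. Since each group is 1 library, no difference has a replicate check and no p-value is given. Ratios are log2 ratios of summed UMIs, each scaled to the total of its cell group, with 0.5 UMI added to each sum, and brackets give 95% intervals that cover counting error only. Pairs of log2 ratios refer to the niche and the distal library.

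CCR7 is the chemokine receptor that guides dendritic cells along CCL19 and CCL21 through the lymphatics to the draining lymph node. A dendritic cell that has matured switches it on together with fascin (Fscn1), which bundles actin, and with the chemokines CCL17 and CCL22, which draw cells bearing CCR4, among them regulatory T cells. Such cells, also described in tumours as mature or regulatory dendritic cells, carry costimulatory and inhibitory ligands side by side and take up less new antigen than the conventional type 1 and type 2 dendritic cells from which they can arise. Migration itself was not measured here, so the cells are called Ccr7 dendritic cells after the gene that chose them.

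The libraries held 3242 niche and 3945 distal barcodes with 38036915 and 22323465 UMIs, and 4 barcode sequences occurred in both. Ccr7 dendritic cells had a median of 8595 UMIs in the niche library and 6598 in the distal library, and all kept cells had 11197 and 5794.5. The matrices list 32285 niche and 30149 distal genes, of which 29413 share an identifier, and the software version named in their headers also differs, so the group, the gene list and the software cannot be told apart in any niche over distal value. Comparison cells were taken from the same libraries by marker genes. They were 14 niche and 98 distal conventional dendritic cells, and 2098 niche and 455 distal macrophages with C1q RNA. Of the conventional cells, 9 niche and 72 distal cells had at least 2 of Xcr1, Clec9a, Wdfy4 and Itgae and are called type 1. The other 5 and 26 are called type 2, although no type 2 gene was required of them. At least 2 type 2 genes were found in 3 of these 5 niche and 17 of these 26 distal cells.

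The cells were chosen by their own counts of the 5 genes of the rule, so their levels are a description only. Ccr7 itself (chr11:99144196-99155077, minus strand, GRCm38) had lowest, median and highest counts of 3, 23 and 81 UMIs per cell in the niche members and 3, 24 and 57 UMIs in the distal members, and was found in 0 of 14 niche and 1 of 98 distal conventional dendritic cells, whose gate allowed at most 2. The rule thus gave cells with high Ccr7, most of them well above its minimum. Fscn1 was detected in 46 of 48 niche and 32 of 41 distal members, Cacnb3, a calcium channel subunit, in 41 of 48 and 36 of 41, and Ccl22 in 42 of 48 and 29 of 41. In T cells, which should lack them, Fscn1 was found in 0 of 17 niche and 0 of 313 distal cells and Ccl22 in 0 of 17 and 0 of 313, which allows up to 17.6% and 0.958% of T cells with a UMI at their lower depth, at median depths of 2751 and 3644 UMIs against 8595 and 6598 in the members. Ccl17 was the most uneven of the 5: 20 of 48 niche and 18 of 41 distal members had a UMI, and the 3 highest cells of each library held 67.0% and 68.3% of its UMIs. At the edge of the rule, 2 members of each library had exactly 3 Ccr7 UMIs, and 1 niche and 2 distal cells with exactly 2 fell outside. A further 12 niche and 9 distal cells passed on Ccr7 but had only 1 of the 4 other genes, and 33 and 43 had none, of which 26 and 35 carried at least 2 B cell genes.

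Genes that the rule did not use also marked these cells as antigen-presenting cells. Cd74, the invariant chain of MHC class II, was detected in all 48 niche and all 41 distal members, at 14385 and 15483 CPM (summed UMIs of a cell group scaled to a total of 1000000), and every member had at least 2 genes of a general dendritic list. That list made up between 2.14% and 9.07% of a niche member's UMIs (median 4.55%) and between 0.676% and 12.6% of a distal member's (median 3.84%). The list is not specific to dendritic cells, since C1q macrophages held a median of 3.73% in the niche and 5.25% in the distal library. Flt3, the receptor for the growth factor of dendritic cells, was sparse, with a UMI in 17 of 48 niche and 10 of 41 distal members. Of 10 T cell marker genes, of which the rule had capped 4, 10 were at 0 in the niche and 8 in the distal members.

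RNA of other cells was present in some members and differed between the libraries. At least 2 of C1qa, C1qb and C1qc, which define the macrophages, were found in 15 of 48 niche but 2 of 41 distal members. Most of this RNA sat in few cells, since 4 niche members with at least 200 C1q UMIs held 967 of the 1139 C1q UMIs. Neutrophil RNA (2 or more of S100a8, S100a9 and Retnlg) was found in 0 niche and 3 distal members, and 2 or more B cell genes in 0 and 1. Leaving out all such members leaves 33 niche and 35 distal cells. The part of such RNA in the other results was not tested. Values without these members are given for some of the niche over distal genes, the interferon list and the splits of the members.

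The share of Ccr7 dendritic cells was 1.56% of kept niche cells (exact Clopper-Pearson interval 1.15% to 2.06%) and 1.16% of kept distal cells (0.832% to 1.57%), a ratio of 1.35 (0.868 to 2.09). The intervals overlap. Because a rule of 3 Ccr7 UMIs finds more cells where a cell has more UMIs, each cell was also thinned to 3000 UMIs, leaving out shallower cells. The shares were then 1.40% in the niche (36 of 2564 cells) and 1.32% in the distal library (34 of 2584), and the ratio was 1.07 (0.649 to 1.76). Without the members that carry RNA of other cells, 33 niche and 35 distal members were left and the niche share was 1.08%. The distal share and the ratio then stayed within the intervals given above. A difference in abundance was not detectable with these numbers of cells. Conventional dendritic cells made up 14 of 3081 niche and 98 of 3540 distal cells. A share within a sorted library also moves with the number of other cells in it, such as the 2098 niche and 455 distal macrophages.

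Ccr7 dendritic cells were then set against the conventional dendritic cells of the same library, where annotation and software are shared. Of 1637 genes with at least 50 UMIs over both cell groups in each library, 203 (12.4%) were at least 2-fold higher in Ccr7 dendritic cells in both libraries and 90 (5.5%) were at least 2-fold lower in both, while 2 (0.122%) passed 2-fold in opposite directions. Across these genes the log2 ratio of the niche library and that of the distal library had a Pearson r of 0.85, and 1292 had the same sign. This r is a description over genes, which are not replicates, and the libraries share no cells in it. The niche ratios rest on only 14 conventional dendritic cells with 141117 UMIs in all, against 98 with 1025021 UMIs in the distal library. Their counting intervals are wider. The gate of the conventional cells capped C1q and B cell RNA, and the rule of the members did not. RNA of other cells was also present in the conventional cells. At least 2 genes of a plasmacytoid list were found in 1 of 48 niche Ccr7 and 6 of 14 niche conventional dendritic cells, and in 1 of 41 distal Ccr7 and 21 of 98 distal conventional dendritic cells. At least 2 genes of a classical monocyte list were found in 3 of 48 niche Ccr7 and 7 of 14 niche conventional dendritic cells, and in 4 of 41 distal Ccr7 and 32 of 98 distal conventional dendritic cells. Their part in the genes that were lower in Ccr7 dendritic cells was not tested.

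**Figure D1:**
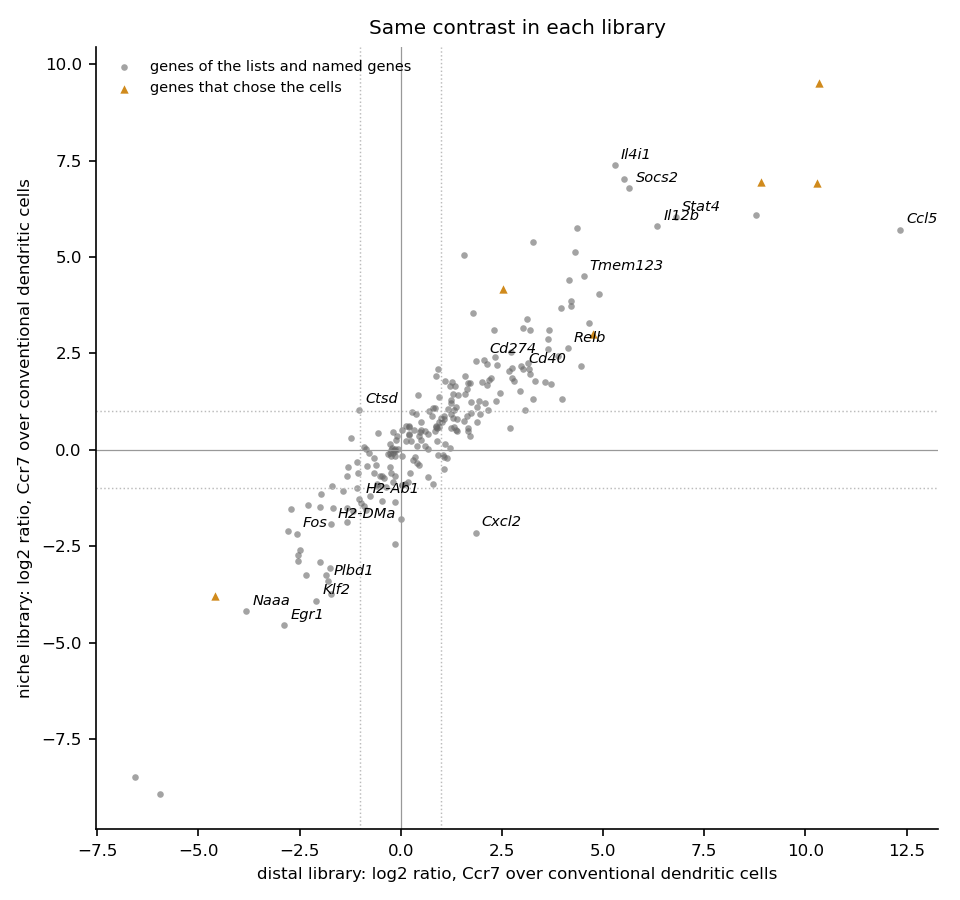
Each point is a gene of the lists or a named gene, with its log2 ratio of Ccr7 over conventional dendritic cells in the distal library on the x axis and in the niche library on the y axis; triangles are genes that chose the cells and dotted lines mark 2-fold. Points lie along the diagonal, with Ccl5 and Il12b at the upper right, Naaa at the lower left, and Cxcl2 (niche -2.15, distal 1.85) apart.

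Among secreted signals, Il12b and Ccl5 stood out. Il12b, which encodes the p40 subunit of interleukin 12 and interleukin 23 (chr11:44400063-44414033, plus strand), had 589 CPM in niche Ccr7 and 7.09 CPM in niche conventional dendritic cells, and 513 CPM in distal Ccr7 and 5.85 CPM in distal conventional dendritic cells. The log2 ratio was 5.80 in the niche (3.89 to 11.69) and 6.34 in the distal library (5.30 to 7.92), where the niche comparison rests on 1 UMI in conventional dendritic cells. Il12b was found in 28 of 48 niche and 22 of 41 distal members, with lowest, median and highest counts of 0, 1 and 50 UMIs in niche and 0, 1 and 45 UMIs in distal members. Members without a UMI, with few UMIs and with many UMIs thus lay side by side in both libraries. In T cells, which should lack it, it was found in 0 of 17 niche and 1 of 313 distal cells. Il12a, the partner chain of interleukin 12, had 0 UMIs in both member groups, which allows up to 3 UMIs in each.

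Ccl5, a chemokine that attracts T cells and monocytes (chr11:83525778-83530518, minus strand), had 7603 CPM in niche Ccr7 and 142 CPM in niche conventional dendritic cells, and 17586 CPM in distal Ccr7 and 2.93 CPM in distal conventional dendritic cells. It was detected in 44 of 48 niche and 40 of 41 distal members, with lowest, median and highest counts of 0, 52 and 470 UMIs in niche and 0, 87 and 588 UMIs in distal members. The log2 ratio over conventional dendritic cells was 5.71 in the niche (5.12 to 6.46) and 12.33 in the distal library (11 to 14.83), where the distal comparison rests on 3 UMIs in conventional dendritic cells. Nearly all members had it and few conventional dendritic cells did (2 of 14 niche and 3 of 98 distal cells). Cxcl16, the membrane-bound ligand of CXCR6, was found in nearly every member (48 of 48 niche and 40 of 41 distal cells), with log2 ratios of 1.02 (0.68 to 1.40) and 2.15 (1.91 to 2.39). Cxcl9, a ligand of CXCR3, had log2 ratios of 1.05 (0.82 to 1.29) and 1.16 (0.98 to 1.34) and was patchy, with a UMI in 32 of 48 niche and 17 of 41 distal members and up to 373 niche and 124 distal UMIs in 1 cell. Ccl4, an inflammatory chemokine, was lower, with log2 ratios of -3.25 (-3.97 to -2.62) and -1.85 (-2.62 to -1.23). Of 6 chemokine genes tested, 3 were at least 2-fold higher and 1 at least 2-fold lower in both libraries. The shares over all genes tested were 12.4% and 5.5%.

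**Figure D2:**
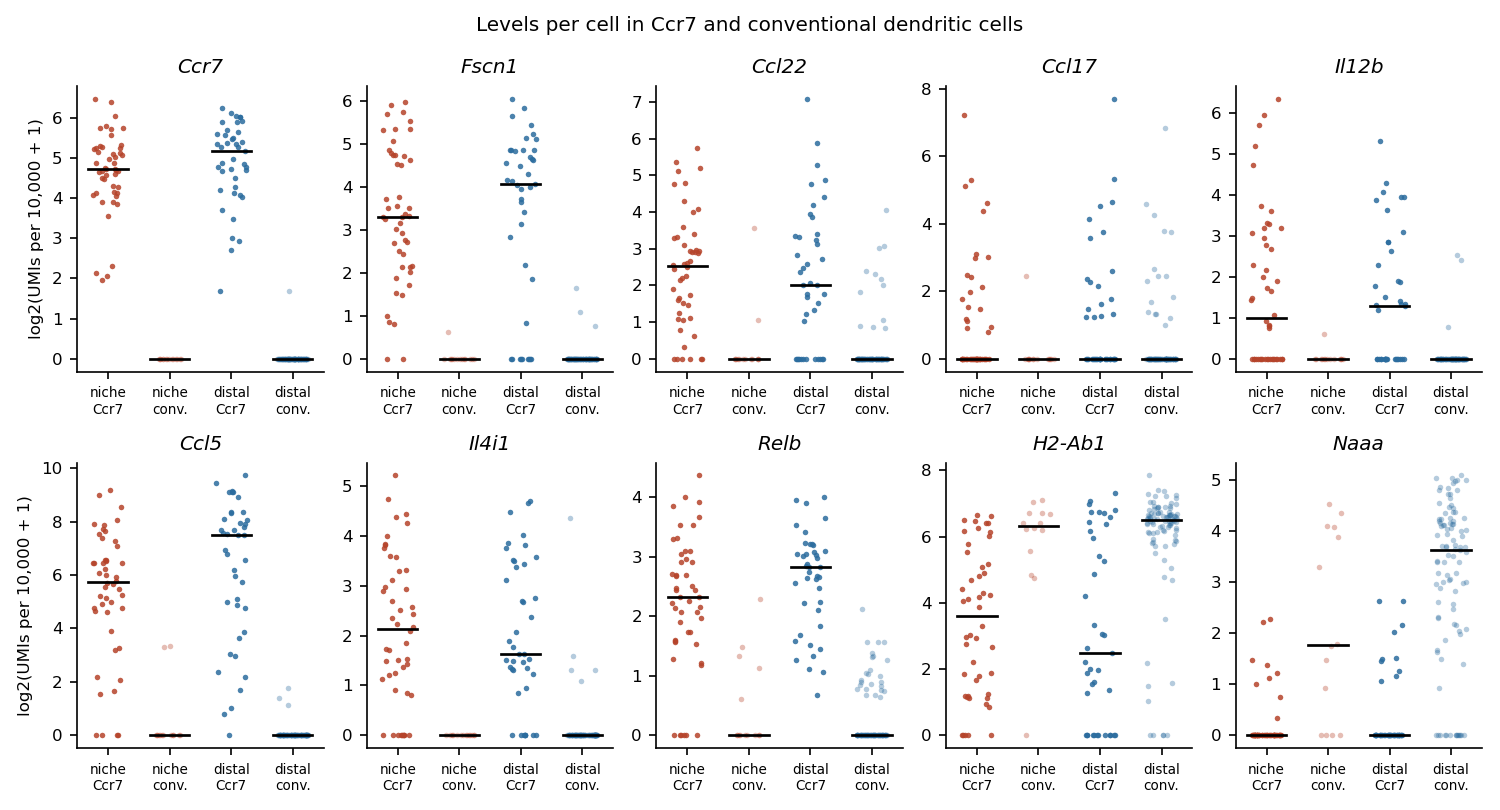
Every dot is 1 cell; the y axis is log2 of UMIs per 10000 UMIs of the cell plus 1, lines are medians, and columns run niche Ccr7, niche conventional, distal Ccr7 and distal conventional dendritic cells. Relb and Ccl5 lie above most conventional dendritic cells in nearly all members, and H2-Ab1 and Naaa are lower. Il12b and Ccl17 range from cells at 0 through cells with few UMIs to cells with many. Ccr7, Fscn1, Ccl22 and Ccl17 chose the cells.

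Genes of movement and shape were higher in Ccr7 dendritic cells. Of 19 genes tested in a list on migration and the cytoskeleton, 11 were at least 2-fold higher and 0 at least 2-fold lower in both libraries, with median log2 ratios of 1.32 in the niche and 1.88 in the distal library, against 0.00 and -0.08 over all genes tested. Because a gene reaches the minimum of UMIs more easily where it is high, these counts describe the genes that could be measured and not the whole list. The shares to set beside the counts of this and later lists in Ccr7 over conventional dendritic cells are 12.4% higher and 5.5% lower of all genes tested. Tmem123, a membrane protein, had a UMI in every member and 887 CPM in niche Ccr7 and 35.4 CPM in niche conventional dendritic cells, and 1217 CPM in distal Ccr7 and 52.7 CPM in distal conventional dendritic cells. Samsn1, an adapter protein of blood cells, had 1494 CPM in niche Ccr7 and 113 CPM in niche conventional dendritic cells, and 1092 CPM in distal Ccr7 and 69.3 CPM in distal conventional dendritic cells, and was detected in 48 of 48 niche and 35 of 41 distal members. More genes of the list were past 2-fold in both libraries. Marcksl1, which links actin to the membrane, had log2 ratios of 2.26 (1.66 to 3.00) and 3.15 (2.86 to 3.46) in the niche and distal libraries, and Swap70, an actin-binding guanine exchange factor, of 3.17 (1.95 to 5.23) and 3.03 (2.46 to 3.65). Fabp5, a fatty acid binding protein, had log2 ratios of 5.38 (3.84 to 8.75) and 3.26 (2.88 to 3.67), with 2 UMIs in niche conventional dendritic cells, and was found in 37 of 48 niche and 19 of 41 distal members. Ccr2, the receptor that brings monocyte-derived cells from blood, was lower, at -3.24 (-3.95 to -2.60) and -2.35 (-3.11 to -1.73).

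Genes of the wider maturation programme were higher too. Of 38 tested genes of a list on mature dendritic cells, 29 were at least 2-fold higher and 0 at least 2-fold lower in both libraries, with median log2 ratios of 2.04 in the niche and 3.13 in the distal library. Nudt17, a nudix hydrolase, had 120 UMIs in niche and 65 in distal members and 0 in the conventional dendritic cells of either library, at least 11.2-fold and at least 72.6-fold higher when 3 UMIs are put in place of each 0. Cd63, a tetraspanin of late endosomes, had 873 CPM in niche Ccr7 and 21.3 CPM in niche conventional dendritic cells, and 605 CPM in distal Ccr7 and 30.2 CPM in distal conventional dendritic cells. Genes of unlike function were among the 29. Zmynd15 had log2 ratios of 5.74 (3.83 to 11.63) and 4.35 (3.75 to 5.07) and Serpinb9, an inhibitor of granzyme B, of 2.87 (2.13 to 3.85) and 3.63 (3.13 to 4.18). Epsti1, an interferon-induced gene, had 935 CPM in niche Ccr7 and 92.1 CPM in niche conventional dendritic cells, and 1141 CPM in distal Ccr7 and 44.9 CPM in distal conventional dendritic cells, and was found in 41 of 48 niche and 29 of 41 distal members. Glipr2 had log2 ratios of 4.41 (3.07 to 6.92) and 4.16 (3.63 to 4.76).

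RNA of costimulation genes and of genes that restrain T cells was present side by side. Cd40, the receptor for CD40 ligand on helper T cells, had 409 CPM in niche Ccr7 and 92.1 CPM in niche conventional dendritic cells, and 340.1 CPM in distal Ccr7 and 42 CPM in distal conventional dendritic cells, and was detected in 37 of 48 niche and 29 of 41 distal members, against 2 of 17 niche and 7 of 313 distal T cells. Cd274 (PD-L1) had 268 CPM in niche Ccr7 and 49.6 CPM in niche conventional dendritic cells, and 222 CPM in distal Ccr7 and 53.7 CPM in distal conventional dendritic cells. Its log2 ratio was 2.34 in the niche (1.35 to 3.77) and 2.05 in the distal library (1.52 to 2.59), with a UMI in 37 of 48 niche and 29 of 41 distal members. Both were found in most members of each library. Cd200, another inhibitory ligand, had log2 ratios of 1.51 (0.71 to 2.56) and 2.95 (2.20 to 3.78). Cd83 and Cd86, markers of activation, passed 2-fold in 1 library at most, with log2 ratios of 0.82 (0.45 to 1.24) and 1.28 (1.04 to 1.52) for Cd83 and 0.92 (0.35 to 1.58) and 0.38 (0.00 to 0.74) for Cd86. Among 7 costimulation genes tested, 2 were at least 2-fold higher and 0 at least 2-fold lower in both libraries. Among 8 genes of immune regulation, 4 were at least 2-fold higher and 0 at least 2-fold lower in both libraries. The shares over all genes tested were 12.4% and 5.5%.

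Il4i1, a secreted amino acid oxidase that restrains T cells, and Socs2, a suppressor of cytokine signalling, were nearly absent from conventional dendritic cells. Il4i1 had 299 UMIs in niche members (593 CPM) and 0 in niche conventional dendritic cells, which is at least 27.9-fold higher when 3 UMIs are put in place of 0. In the distal library it had 549 CPM in Ccr7 and 13.7 CPM in conventional dendritic cells. Socs2 had 391 CPM in niche members and 0 UMIs in niche conventional dendritic cells (at least 18.4-fold higher), and 415 CPM in Ccr7 and 7.8 CPM in conventional dendritic cells of the distal library. It was detected in 45 of 48 niche and 36 of 41 distal members. Aldh1a2, which makes retinoic acid, was rarer, with a UMI in 10 of 48 niche and 13 of 41 distal members. Ido1, a tryptophan-degrading enzyme, had 0 UMIs in both member groups, which allows up to 3 UMIs in each.

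**Figure D3:**
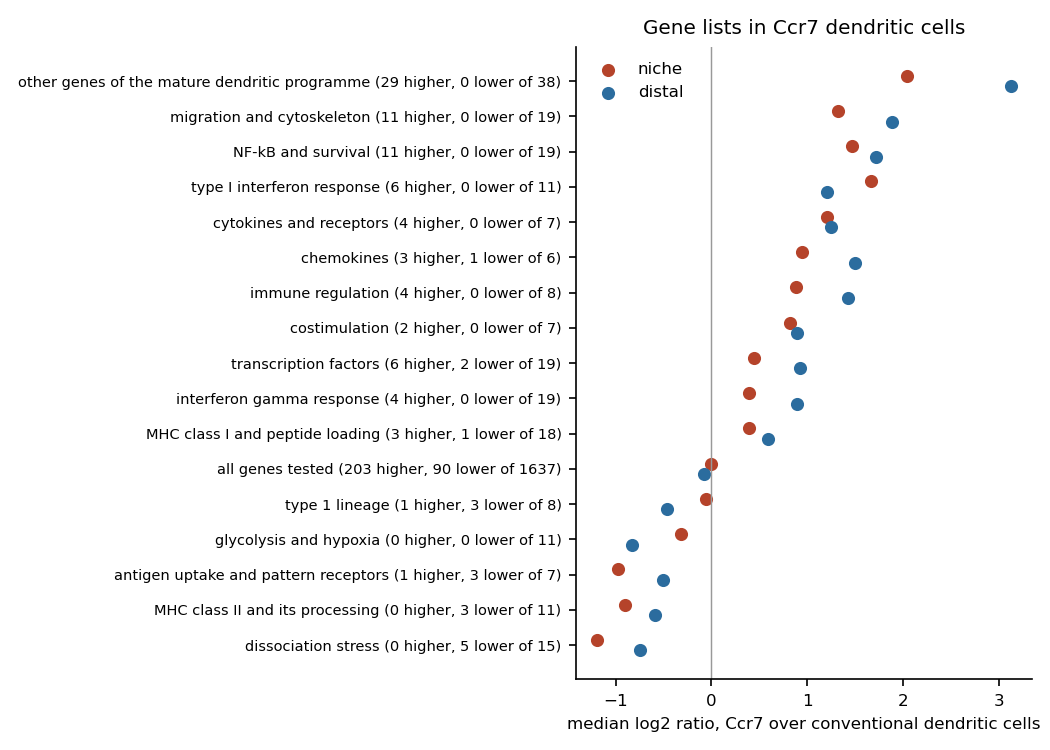
Points are the median log2 ratio of Ccr7 over conventional dendritic cells for the genes of each list with at least 50 UMIs in both libraries, niche in red and distal in blue; lists with fewer than 6 such genes are not drawn, and labels give how many genes were at least 2-fold higher or lower in both libraries. The mature dendritic programme lies furthest right (2.04 and 3.13), all genes lie near 0, and dissociation stress lies furthest left in the niche library (-1.20, and -0.75 in the distal library).

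Genes of NF-kB, the transcription factor family that drives dendritic cell maturation, were higher as well. Of 19 genes tested on NF-kB and survival, 11 were at least 2-fold higher and 0 at least 2-fold lower in both libraries, with medians of 1.47 in the niche and 1.71 in the distal library. Relb, the subunit of the alternative pathway, had lowest, median and highest counts of 0, 4 and 16 UMIs in niche members and 1, 4 and 12 in distal members, and was detected in 42 of 48 and 41 of 41 of them, against 5 of 14 niche and 25 of 98 distal conventional dendritic cells. Its log2 ratio was 2.63 in the niche (1.79 to 3.78) and 4.13 in the distal library (3.59 to 4.74). After thinning to 3000 UMIs it was found in 27 of 45 niche and 34 of 40 distal members, against 2 of 13 and 9 of 98 conventional dendritic cells. At equal depth it was thus found in most members and in few conventional dendritic cells. Nfkb2, the partner of Relb, had 192 CPM in niche Ccr7 and 49.6 CPM in niche conventional dendritic cells, and 167 CPM in distal Ccr7 and 35.1 CPM in distal conventional dendritic cells, and Rel had log2 ratios of 1.47 (0.94 to 2.10) and 2.45 (2.11 to 2.79). Traf1, an adapter of the tumour necrosis factor receptors, had 2.04 (1.52 to 2.66) and 2.67 (2.40 to 2.94), and Birc2, an inhibitor of cell death, 2.10 (1.10 to 3.54) and 3.17 (2.59 to 3.82). Bcl2l14, of the BCL2 family, had 3.72 (2.15 to 7.10) and 4.20 (3.27 to 5.39). Nfkb1, the partner in the classical pathway, did not reach 2-fold in either library, with log2 ratios of 0.10 (-0.53 to 0.82) and 0.60 (0.13 to 1.05).

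The promoter of Nfkb2 is shown because Nfkb2 and its partner Relb were higher in the same cells. RefSeq (GRCm38.p6) gives these 130 bases before the start site, at chr19:46304607-46304736, plus strand, with the matches to the NF-kB consensus in capitals, at 3 positions when both strands are searched and overlaps are counted:
Nfkb2: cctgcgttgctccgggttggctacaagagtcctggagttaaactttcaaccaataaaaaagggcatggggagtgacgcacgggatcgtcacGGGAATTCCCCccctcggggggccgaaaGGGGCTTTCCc
In the 250 bases before each start in the RefSeq promoter table, the consensus was found for 8 of the 23 genes of the NF-kB and survival list that have an entry (34.8%), 4 of 18 interferon gamma genes (22.2%), 5 of 47 genes of the mature dendritic programme (10.6%) and 2 of 21 type I interferon genes (9.52%), against 4.46% of all 27025 genes. A match is a description of these letters and does not show binding.

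Transcription factors of the dendritic lineages gave a mixed picture. Stat4, which passes on the interleukin 12 signal, had 230.2 CPM in niche and 160.3 CPM in distal members, against 0 UMIs in niche and 1 UMI in distal conventional dendritic cells. In the niche it was at least 10.8-fold higher when 3 UMIs are put in place of 0, and in the distal library its log2 ratio was 6.79 (4.81 to 12.69). It was detected in 31 of 48 niche and 18 of 41 distal members. Etv3, a repressor of the ETS family, had log2 ratios of 1.86 (1.09 to 2.84) and 2.76 (2.33 to 3.22). Irf8 and Batf3, which the type 1 lineage needs, were not 2-fold apart in either library, with log2 ratios of -0.09 (-0.31 to 0.15) and -0.78 (-0.98 to -0.58) for Irf8 and -0.02 (-0.79 to 0.88) and -0.15 (-0.70 to 0.35) for Batf3. Klf2, a factor of quiescent cells, was lower at -3.91 (-4.83 to -3.15) and -2.08 (-2.85 to -1.46). Of 19 transcription factors tested, 6 were at least 2-fold higher and 2 at least 2-fold lower in both libraries. The shares over all genes tested were 12.4% and 5.5%.

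Marker genes of the conventional lineages were found in a minority of members. At least 1 of the type 1 genes Xcr1, Clec9a, Itgae and Cadm1 was detected in 19 of 48 niche and 11 of 41 distal members, and at least 1 of the type 2 genes Cd209a, Clec10a and Mgl2 in 6 and 6. Neither kind was found in 28 niche and 27 distal members. Most of these genes also chose the conventional dendritic cells, so no fold is read from them. Naaa, a lysosomal amidase known from type 1 cells and used by no gate, had 41.7 CPM in niche Ccr7 and 772 CPM in niche conventional dendritic cells, and 85 CPM in distal Ccr7 and 1222 CPM in distal conventional dendritic cells, and its log2 ratio was -4.19 in the niche (-4.96 to -3.53) and -3.82 in the distal library (-4.47 to -3.29). It was found in 9 of 48 niche and 10 of 41 distal members and in 10 of 14 and 84 of 98 conventional dendritic cells. The members with it were thus the minority, and the conventional cells with it the majority. Ppt1, a lysosomal thioesterase, had log2 ratios of -2.10 (-2.53 to -1.67) and -2.77 (-3.40 to -2.25). The conventional dendritic cells were mostly of type 1, and the cell type from which a member arose cannot be read from these counts.

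MHC class II genes had median log2 ratios of -0.90 in the niche and -0.59 in the distal library, and their RNA was very uneven between cells. H2-Ab1, a class II chain, had lowest, median and highest counts of 0, 8.5 and 258 UMIs in niche Ccr7 and 0, 86 and 255 UMIs in niche conventional dendritic cells. In the distal library it had 0, 3 and 158 UMIs in Ccr7 and 0, 91 and 192 UMIs in conventional dendritic cells. The ranges overlap, with the medians far apart. The summed level was 3381 CPM in niche Ccr7 and 8171 CPM in niche conventional dendritic cells, and 4052 CPM in distal Ccr7 and 8263 CPM in distal conventional dendritic cells, a log2 ratio of -1.27 (-1.38 to -1.16) and -1.03 (-1.12 to -0.94). H2-DMa and H2-DMb1, which load peptides on class II, were further apart, with log2 ratios of -1.93 (-2.26 to -1.61) and -1.72 (-2.07 to -1.40) for H2-DMa and -1.49 (-1.87 to -1.10) and -1.98 (-2.38 to -1.63) for H2-DMb1. Of 11 class II genes tested, 0 were at least 2-fold higher and 3 at least 2-fold lower in both libraries.

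MHC class I genes had small ratios of the opposite sign, with medians of 0.40 in the niche and 0.59 in the distal library. B2m, the common light chain, had log2 ratios of 0.82 (0.67 to 0.99) and 1.01 (0.91 to 1.10), and H2-K1 had 0.61 (0.43 to 0.80) and 0.87 (0.76 to 0.98). Psme2, a proteasome activator subunit, was higher, with 1500.0 CPM in niche Ccr7 and 559.8 CPM in niche conventional dendritic cells, and 1504 CPM in distal Ccr7 and 564 CPM in distal conventional dendritic cells. Of 18 class I genes tested, 3 were at least 2-fold higher and 1 at least 2-fold lower in both libraries. These counts are near the shares over all genes tested, 12.4% higher and 5.5% lower. Balb/c mice carry another H2 haplotype than the reference strain, which can affect the levels of H2 genes in all cells alike. Among receptors of antigen uptake, Ly75 (DEC-205) had log2 ratios of 3.55 (1.97 to 6.93) and 1.79 (1.05 to 2.52), the niche one resting on 2 UMIs in conventional dendritic cells, while of 7 genes tested 1 was at least 2-fold higher and 3 at least 2-fold lower in both libraries.

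Immediate early and metabolic genes were among the 10 genes furthest lower in both libraries out of those with at least 100 UMIs and 50 CPM. Fos had 234 CPM in niche Ccr7 and 1056 CPM in niche conventional dendritic cells, and 245 CPM in distal Ccr7 and 1468 CPM in distal conventional dendritic cells, and Ier2 had log2 ratios of -2.91 (-3.47 to -2.38) and -1.98 (-2.45 to -1.58). Both belong to a list of genes that tissue dissociation can induce, of whose 15 tested genes 0 were at least 2-fold higher and 5 at least 2-fold lower in both libraries; Egr1 had -4.54 (-5.73 to -3.64) and -2.88 (-3.78 to -2.19). Alox5ap, needed for leukotriene synthesis, had -2.74 (-3.33 to -2.17) and -2.53 (-3.05 to -2.08), Ckb, a creatine kinase, -2.89 (-3.41 to -2.39) and -2.54 (-2.97 to -2.15), and Plbd1 -3.41 (-4.05 to -2.83) and -1.80 (-2.21 to -1.44). Hmgb2, a chromatin protein high in dividing cells, had -1.53 (-1.92 to -1.13) and -2.70 (-3.15 to -2.31). It turned to 1.43 in the niche library when only the 5 conventional dendritic cells not classed as type 1 were used.

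Receptors for growth and survival cytokines were higher beside Il12b. Il15ra, which presents interleukin 15 to lymphocytes, had log2 ratios of 1.76 (0.48 to 3.85) and 3.58 (2.67 to 4.68), and Il7r, a subunit of the receptors for interleukin 7 and TSLP, of 1.73 (0.82 to 2.97) and 1.66 (0.91 to 2.40). Csf2rb, the shared chain of the GM-CSF receptor, had 1.21 (0.57 to 1.99) and 1.25 (0.87 to 1.63). Of 7 cytokine and receptor genes tested, 4 were at least 2-fold higher and 0 at least 2-fold lower in both libraries.

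Genes induced by type I interferon were spread very unevenly. The list's 25 measured genes made up a median of 0.116% of a niche member's UMIs and 0.161% of a distal member's, from 0% in the lowest cell of each library to 2.45% and 2.43% in the highest. At 0.5% or more there were 6 of 48 niche and 8 of 41 distal members, and these held 1035 of 1547 (66.9%) and 930 of 1294 (71.9%) of the UMIs of the list. In them 12 to 24 niche and 6 to 25 distal list genes were detected per cell, against a median of 4 in the other members of each library. Among conventional dendritic cells, 1 of 14 niche and 10 of 98 distal cells passed the same line, which was chosen after the values had been seen. Median depths were 14420.5 UMIs in the 6 niche cells and 8322.5 in the other niche members, and 6979 and 6598 in the distal library. Of the 6 niche cells 3 carried at least 2 C1q genes, and of the 8 distal cells 0 did.

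**Figure D4:**
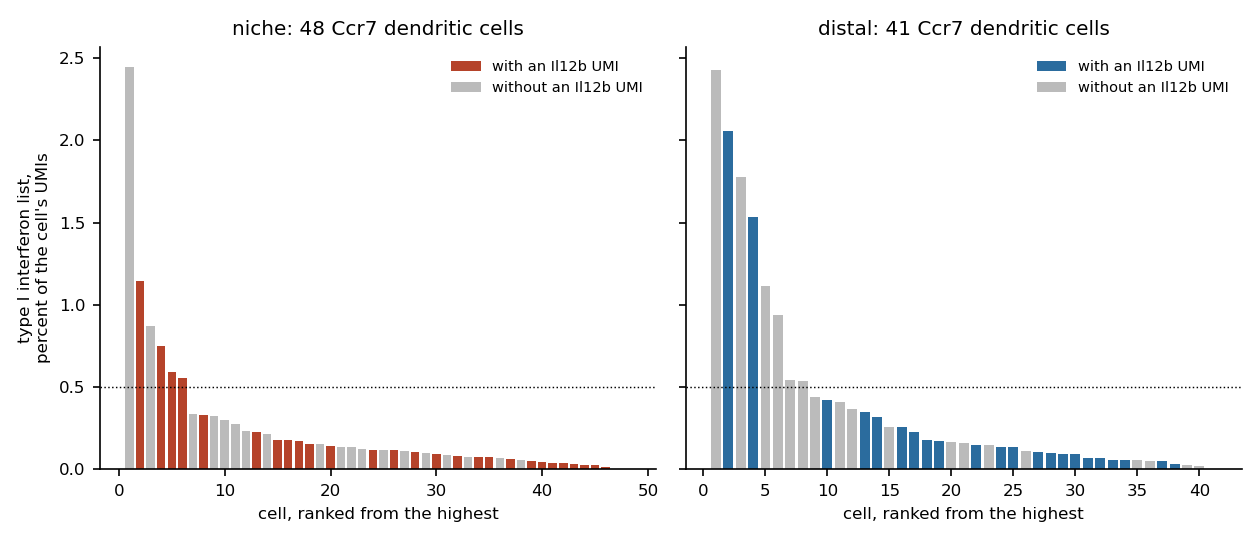
Bars are single Ccr7 dendritic cells ranked by the percentage of their UMIs from the type I interferon list, coloured where an Il12b UMI was found, with the niche library on the left, the distal library on the right and a dotted line at 0.5%. A few cells stand high, 6 of 48 in the niche and 8 of 41 in the distal library, and the rest form a low tail; of the high cells 4 niche and 2 distal cells had Il12b, and 3 niche cells and 0 distal cells had at least 2 C1q genes.

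Summed over cells, the list looked higher in Ccr7 than in conventional dendritic cells. Of 11 genes tested, 6 were at least 2-fold higher and 0 at least 2-fold lower in both libraries, with median log2 ratios of 1.66 and 1.21. Isg15, a ubiquitin-like protein, had 819 CPM in niche Ccr7 and 163 CPM in niche conventional dendritic cells, and 1040.1 CPM in distal Ccr7 and 285 CPM in distal conventional dendritic cells, with lowest, median and highest counts of 0, 2 and 116 UMIs in niche and 0, 2 and 67 UMIs in distal members. Rsad2 (viperin) had log2 ratios of 3.40 (1.43 to 9.30) and 3.12 (2.32 to 4.05) with a UMI in 7 of 48 niche and 9 of 41 distal members. Without the 6 and 8 members the medians were -1.09 and -0.68, a drop that the removal of the richest cells brings by construction, while all conventional dendritic cells were kept. They were also -0.56 and 0.32 without members carrying RNA of other cells, and -0.20 and 0.90 without the 5% of cells with most UMIs. Of the Isg15 UMIs, 284 of 413 lay in the 6 niche members and 240 of 318 in the 8 distal members.

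Promoters of 3 interferon-induced genes are shown because RNA of such genes was concentrated in few members. It also differed between members with and without Il12b and between members with and without Ccl17, both described after the promoters. The sequences are RefSeq's (GRCm38.p6), written 5′ to 3′ on the strand of the gene. Capitals mark GAAANNGAAA, the core of the interferon-stimulated response element, on either strand, with overlapping matches joined. For Isg15 (chr4:156200819-156200948, minus strand) and Rsad2 (chr12:26456453-26456582, minus strand) they are the 130 bases before the start site, and for Cxcl10 (chr5:92348980-92349109, minus strand) bases -220 to -91.
Isg15: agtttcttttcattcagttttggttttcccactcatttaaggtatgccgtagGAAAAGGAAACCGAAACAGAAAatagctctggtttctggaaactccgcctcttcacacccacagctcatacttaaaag
Rsad2: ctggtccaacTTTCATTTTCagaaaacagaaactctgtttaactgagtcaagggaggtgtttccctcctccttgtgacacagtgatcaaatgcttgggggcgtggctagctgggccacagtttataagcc
Cxcl10: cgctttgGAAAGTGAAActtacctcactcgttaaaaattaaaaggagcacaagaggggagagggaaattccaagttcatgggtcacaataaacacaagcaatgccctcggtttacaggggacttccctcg
Isg15 has 3 overlapping matches, Rsad2 has 1 on the opposite strand and Cxcl10 has 1. In the 250 bases before the start, on either strand, the motif was found for 10 of 21 type I interferon genes with a RefSeq promoter entry (47.6%) and 9 of 18 interferon gamma genes (50%), against 0 of 23 NF-kB and survival genes and 3.46% of all 27025 genes. These shares describe letters in the promoter window only.

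Members with and without Il12b were compared next, a split chosen after the values had been seen. Il12b was found in 28 of 48 niche members (58.3%) and 22 of 41 distal members (53.7%), and after thinning to 3000 UMIs in 21 of 45 and 16 of 40. Ccl17 was found in 39.3% of niche and 31.8% of distal members with Il12b, against 45% and 57.9% of those without. Both genes were found in 11 niche and 7 distal members, Il12b alone in 17 and 15, Ccl17 alone in 9 and 11, and neither in 11 and 8. Members with Il12b had median depths of 9000.5 UMIs in the niche and 6799.5 in the distal library, against 7731.5 and 6270 in those without. Of 1281 genes with at least 30 UMIs over the members of each library, 7 (0.546%) were at least 2-fold higher and 25 (1.95%) at least 2-fold lower in both libraries in members with Il12b, and 6 (0.468%) passed 2-fold in opposite directions.

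The 7 higher genes were Ncoa7, Cd9, Arhgap31, Nudt9, Rnaset2a, Txndc17 and Rab9, none of which is in the type I interferon list. Ncoa7, a coactivator of nuclear receptors, had 523 CPM in the niche members with and 166 CPM in those without Il12b UMIs, and 634 against 73.8 CPM in the distal members, with log2 ratios of 1.64 (1.12 to 2.23) and 3.04 (2.17 to 4.20). Cd9, a tetraspanin, had log2 ratios of 1.37 (0.61 to 2.27) and 1.52 (0.92 to 2.21). The genes of the mature dendritic programme, by comparison, had small ratios, with medians of 0.35 and 0.32 and 1 of 40 higher in both libraries.

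Lower genes in members with Il12b included Timd4, a receptor for dead cells, with 34.2 CPM in the niche members with and 251 CPM in those without Il12b UMIs, and 52.8 against 421 CPM in the distal members, and Il1b, interleukin 1 beta, with log2 ratios of -1.08 (-1.37 to -0.81) and -1.23 (-1.56 to -0.91). Il1rn, the interleukin 1 receptor antagonist, had log2 ratios of -1.94 (-2.86 to -1.14) and -2.82 (-4.45 to -1.66) and Plac8 of -1.76 (-2.28 to -1.28) and -3.43 (-4.39 to -2.68). Interferon genes were lower too: Cxcl10 had -2.78 (-3.40 to -2.25) and -1.53 (-2.28 to -0.85), Rsad2 -3.70 (-5.50 to -2.50) and -1.92 (-3.09 to -0.94) and Isg15 -1.59 (-1.90 to -1.29) and -1.19 (-1.53 to -0.85). Of the 13 tested genes of the type I list, 12 and 13 were below 0 in the niche and distal libraries, against 705 and 667 of all 1281 genes. These interferon values rest on few cells, and so do those of Timd4, Il1rn and Plac8. Timd4 was found in 5 niche and 3 distal members with Il12b and in 6 and 7 without. Il1rn was found in 7 and 2 members with Il12b and in 5 and 8 without, and Plac8 in 4 and 3 with and in 10 and 5 without. Without the members at or above 0.5% interferon RNA, only 10 of the 25 lower genes could still be tested, of which 4 were still at least 2-fold lower in both libraries and 9 kept their sign in both. The exception was Isg15, with -1.05 and 0.0047. All 7 higher genes kept their sign in both libraries in that subset, and 4 were still past 2-fold. Without members carrying RNA of other cells, 8 of the 25 lower genes could be tested, of which 5 were still past 2-fold and 7 kept their sign, and log2 ratios were -4.19 and -2.34 for Il1b and -7.20 and -3.46 for Plac8. With sides set by the thinned counts, all 24 lower genes that could be tested had the same sign, and 12 were past 2-fold.

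A like split by Ccl17, which is a gene of the rule, gave 20 genes (1.56%) higher and 7 (0.546%) lower in both libraries in members with Ccl17. A further 6 (0.468%) passed 2-fold in opposite directions, nearly as many as were lower in both. Members without Ccl17 were chosen only if they had at least 2 of Ccl22, Fscn1 and Cacnb3. The rule thus shapes both sides of this split, and its part in the values was not tested. Timd4 was far higher, with 252 CPM in the niche members with and 14.8 CPM in those without Ccl17 UMIs, and 441 against 18.4 CPM in the distal members, with log2 ratios of 3.93 (2.66 to 6.01) and 4.37 (2.97 to 6.90). Ccnd2, a cyclin, had log2 ratios of 1.97 (1.49 to 2.50) and 1.83 (1.25 to 2.48). Of 13 type I interferon genes tested, 5 were at least 2-fold higher and 0 at least 2-fold lower in both libraries. Their median log2 ratios were 1.22 in the niche and 1.57 in the distal library, against 0.03 and 0.01 over all genes. Of the 6 niche and 8 distal members at or above 0.5% interferon RNA, 4 and 5 had Ccl17. Ccl22 is among the 20 but is not compared here, since it and Ccl17 both chose the cells. Among the lower genes, Cebpb, a transcription factor of myeloid cells, had -1.84 (-3.06 to -0.88) and -3.31 (-5.85 to -1.86). It was found in only 3 niche and 2 distal members with Ccl17 and in 6 and 6 without. Pfkfb3, a regulator of glycolysis, had -1.69 (-2.62 to -0.91) and -1.99 (-3.07 to -1.12). Timd4 rests on few cells: 9 niche and 8 distal members with Ccl17 had it, against 2 and 2 without. Of the 20 higher genes, 5 could be tested without the members at or above 0.5% interferon RNA, and 4 of these were still past 2-fold. With sides set by thinned counts, 19 could be tested and 5 were. Without members carrying RNA of other cells, 6 could be tested and 4 were.

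Few genes of any kind, those of the mature programme included, were past 2-fold between niche and distal Ccr7 dendritic cells. Of 2017 genes with at least 50 UMIs over both member groups, 83 (4.12%) were at least 2-fold higher in the niche and 37 (1.83%) at least 2-fold lower, and without members carrying RNA of other cells these counts were 40 and 65. Genes of migration and the cytoskeleton (20 tested) and of NF-kB and survival (22 tested) had none past 2-fold, with medians of -0.03 and -0.05 against 0.02 over all genes. The mature dendritic programme had 0 higher and 1 lower of 45, the lower one being Ccl5. In lists of this size such counts lie near the shares over all genes and do not set the programme apart. Relb had 460.3 CPM in niche and 553 CPM in distal members, and Il12b 589 and 513 CPM. Cd274 had 268 and 222 CPM.

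Ccl5 was lower in the niche, with 7603 CPM (7364 to 7848) in niche and 17586 CPM (17119 to 18063) in distal members, a log2 ratio of -1.21 (-1.27 to -1.15). The ranges over cells overlap, at 0, 52 and 470 UMIs in niche and 0, 87 and 588 UMIs in distal members for the lowest, median and highest. In C1q macrophages, where the same difference of gene lists and software applies, Ccl5 had a log2 ratio of 0.45. Pdcd1lg2 (PD-L2) was higher in the niche, with 85 UMIs in 31 of 48 niche members and 16 UMIs in 10 of 41 distal members, a log2 ratio of 1.65 (0.91 to 2.56), and 1.60 in macrophages as well. After thinning to 3000 UMIs it was found in 19 of 45 niche and 5 of 40 distal members, and before it in 2 of 17 niche and 27 of 313 distal T cells. Il7r had a log2 ratio of 1.07 (0.51 to 1.70), and 0.11 in macrophages. Cxcl9 had 0.91 (0.75 to 1.07), below 2-fold, and 1.25 in macrophages.

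Out of genes with at least 100 UMIs and 50 CPM, the 10 furthest higher in the niche were genes of macrophages or were also apart between niche and distal macrophages. C1qa, C1qb and C1qc had log2 ratios of 6.78, 5.22 and 4.20, and between -0.09 and 0.06 in macrophages. Ccl12, a ligand of CCR2, had 112 UMIs in 8 niche members and 0 in distal members, at least 22.6-fold higher when 3 UMIs are put in place of 0, and Ccl8 had 4.65 from 4 niche cells. Tgfbi and Gatm had 1.98 and 1.84, and Gatm 0.80 without members that carry RNA of other cells, where the C1q genes, Ccl12, Ccl8 and Tgfbi had too few UMIs to be tested. Atp6v0c, Mmp25 and Slc38a2 had 7.58, 2.76 and 2.04 in members and 9.0, 2.78 and 1.25 in macrophages. These 3 were thus at least 2-fold higher in niche macrophages too.

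**Figure D5:**
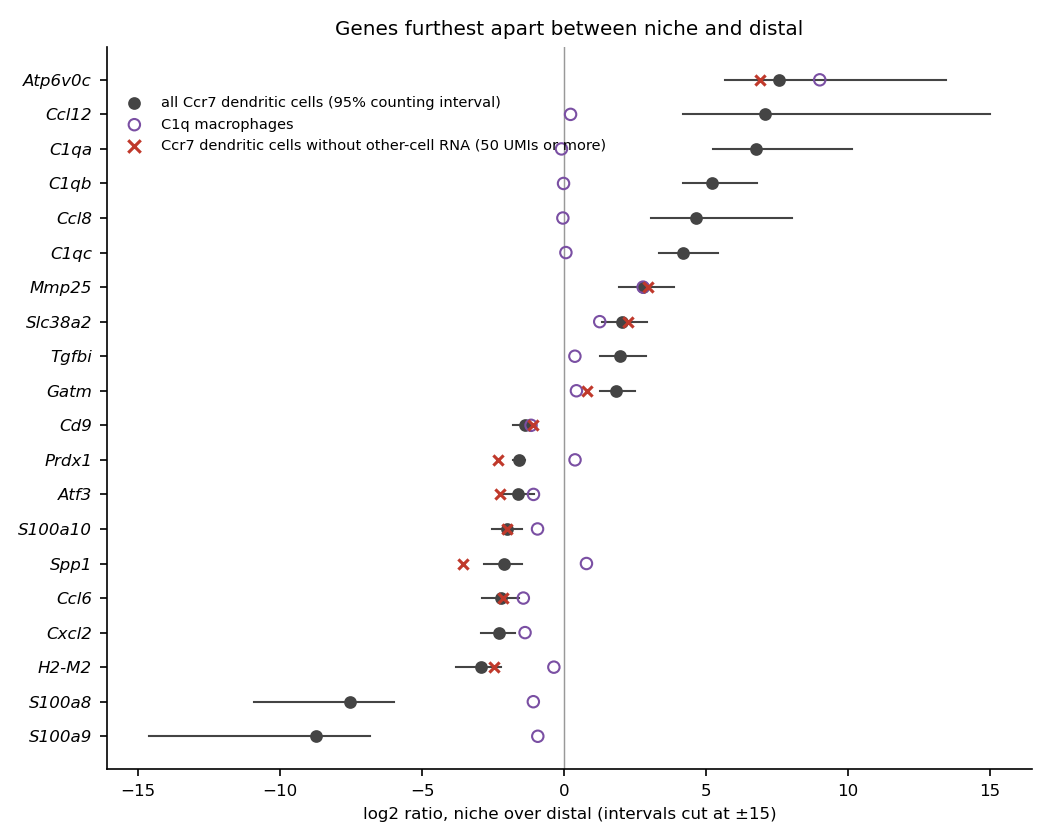
Filled points with bars are log2 ratios of niche over distal Ccr7 dendritic cells with 95% counting intervals for the 20 named genes, open circles the same ratio in C1q macrophages, and crosses the ratio without members carrying RNA of other cells, where at least 50 UMIs remained. H2-M2, Prdx1 and Spp1 lie below 0 in members and near or above 0 in macrophages (-0.36, 0.38 and 0.79), whereas the C1q genes have no cross.

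Among genes lower in the niche, S100a9 and S100a8 were found in 4 and 5 distal members, with 1 and 2 UMIs in niche and 390 and 285 UMIs in distal members. H2-M2, a class Ib molecule, had 18 UMIs in 10 niche and 86 UMIs in 15 distal members, a log2 ratio of -2.95 (-3.80 to -2.23), with -2.48 in members without RNA of other cells and -0.36 in macrophages. Prdx1, a peroxidase, had -1.58 (-1.79 to -1.38), with -2.33 without those members and 0.38 in macrophages, but 3 distal cells held 66.9% of its distal UMIs. Spp1 (osteopontin) had -2.13 (-2.82 to -1.50) and -3.58 without those members. In macrophages none of these 3 genes was 2-fold lower. Ccl6, Cxcl2, Atf3 and Cd9 were lower both in members (-2.22, -2.31, -1.62 and -1.39) and in macrophages (-1.44, -1.38, -1.08 and -1.17). S100a10 had -2.01 and -0.94.

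Medians over some lists also differed from that of all genes. Of all 2017 genes tested, 4.12% were at least 2-fold higher and 1.83% at least 2-fold lower in the niche, and 1033 were above 0. Glycolysis and hypoxia genes had a median log2 ratio of 0.41, with 11 of 12 above 0 and none past 2-fold, and lipid and cholesterol genes a median of -0.90, with 4 of 8 at least 2-fold lower. Hmgcs1, an enzyme of cholesterol synthesis, had -1.02, Abcg1, a cholesterol exporter, -2.11, and Lpl, lipoprotein lipase, -2.71. In macrophages the same ratios were 0.24, -0.35 and -0.41. Their counts are small, such as 13 niche and 53 distal UMIs for Lpl in 7 niche and 6 distal members. Genes of dissociation stress had a median of -0.60, with 3 of 13 at least 2-fold lower. Summed over whole lists, C1q macrophages differed in the same directions for these lists. Niche and distal macrophages had 6146 and 4228 CPM of the glycolysis and hypoxia list and 4786 and 9083 CPM of the lipid and cholesterol list. Their dissociation stress list had 7753 and 11730 CPM. Type I interferon genes had a median of -0.41 with 1 of 13 above 0, and 0.18 without the members at or above 0.5% interferon RNA.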

How the data were processed

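Both libraries were made with the 10x Chromium 3 prime kit, per the labels. The authors deposited 1 matrix per library with unnormalized UMI counts, whose software version was 6.0.0 for the niche and 3.0.2 for the distal library, per the file headers. Bowtie2, RSEM, Seurat 4.1.1 and Cell Ranger 3.02 are named, without roles, in the submitters' processing notes, as is build GRCm38. Cells needed 200 or more detected genes and a mitochondrial share of 10% or less, and no doublet caller was run. Conventional dendritic cells had at least 3 of 9 gate genes and at most 3 C1q UMIs, and macrophages at least 10 C1q UMIs. UMIs were summed per cell group and scaled to CPM. A gene counted as different at 2-fold or more with at least 50 UMIs over both groups. Intervals of ratios are exact conditional binomial intervals. Named genes beyond the lists were the 10 highest and 10 lowest ratios per comparison among genes with at least 100 UMIs and, in the higher group, 50 CPM, without ribosomal, mitochondrial and unnamed genes. The members, lists and splits were chosen with earlier results of these data known. Sums and tests were run with pandas 2.3.3, scipy 1.17.1 and numpy 2.4.6 in Python 3.11.15, figures were drawn with matplotlib 3.10.9, and the calling step was tested on simulated data.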

Additional observations from a re-analysis of the deposited data

Results flagged for a closer look

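For 2 genes the ratio of Ccr7 over conventional dendritic cells passed 2-fold in opposite directions in the libraries, and this difference between niche and distal lung was not tested. Ctsd, a lysosomal protease, had a log2 ratio of 1.04 in the niche and -1.03 in the distal library. It had 62 UMIs in niche Ccr7 and 8 in niche conventional dendritic cells, and 59 in distal Ccr7 and 407 in distal conventional dendritic cells. It shares exonic bases with a gene that only 1 of the matrices lists. Cxcl2, a chemokine for neutrophils, had -2.15 in the niche and 1.85 in the distal library. It was found in 4 of 48 niche Ccr7 and 1 of 14 niche conventional dendritic cells, and in 8 of 41 distal Ccr7 and 12 of 98 distal conventional dendritic cells.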

How the results depend on the processing

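No paired analysis was possible because each group is 1 library. Of the ratios of named genes in the niche over distal and Ccr7 over conventional comparisons, each recomputed under the alternatives, 661 stayed within their counting interval, 52 left it and 1 changed sign: Hmgb2 was 1.43 in the niche with the conventional dendritic cells not classed as type 1 alone. Of the counts of genes, 83 stayed within 1.5 times the reported one and 25 did not. Without members carrying RNA of other cells the niche share was 1.08%, and 40 genes were higher and 65 lower in the niche. With the mean of single-cell CPM 56 were lower. Without genes apart in macrophages, chosen after seeing the data, 53 were higher and 7 list genes lower. With a minimum of 20 UMIs, 262 genes were higher and 152 lower in the niche (list genes 17 and 29), and 345 higher and 224 lower over conventional dendritic cells (34 list genes lower). With no minimum, these were 1539 and 1802 (list genes 44 and 53), and 646 and 1143 (list genes 120 and 62). The splits, also chosen after seeing the data, moved too, and some of their genes changed sign: of the 24 genes lower with Il12b that could be tested with sides set by thinned counts 24 kept their sign, but only 17 of 19 genes higher with Ccl17 did. Without the members at or above 0.5% interferon RNA, 6 genes were lower with Il12b and 5 higher with Ccl17, with sides set by thinned counts 13 and 7, and without members carrying RNA of other cells 11 were higher with Ccl17. Lowering the minimum adds genes of few UMIs by construction; the cause of the other changes was not tested. Both member groups are small, and genes under 50 UMIs were not compared.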

Other observations

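Other genes of the mature dendritic list were higher in Ccr7 than in conventional dendritic cells in both libraries. Ramp3, which modifies receptors of calcitonin-like peptides, had 232 UMIs in niche Ccr7 and 0 in niche conventional dendritic cells, at least 21.7-fold higher when 3 UMIs are put in place of 0, and a log2 ratio of 5.52 (4.37 to 7.32) in the distal library. Tbc1d4, a regulator of vesicle traffic, had 2.12 (1.58 to 2.76) and 2.76 (2.46 to 3.07), and Gadd45b, a stress-induced gene, 1.97 (1.5 to 2.51) and 3.19 (2.91 to 3.50). Nr4a3, a nuclear receptor induced by activation, had 1.04 (0.34 to 1.90) and 3.08 (2.50 to 3.72). Of 19 interferon gamma genes tested, 4 were at least 2-fold higher and 0 at least 2-fold lower in both libraries. The shares over all genes tested were 12.4% and 5.5%. Gbp4, a guanylate-binding protein, was among the 4, with 1.25 (0.54 to 2.14) and 1.95 (1.39 to 2.51).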
